A study of Aegilops tauschii x Triticum turgidum with 4 samples.

Results

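In the crowns of wheat hybrids whose shoots stop growing, 115 array probes kept a measurable signal but lay at least 16-fold below their level in hybrids labelled wild type. They were chosen by the measured contrast itself. A probe was taken if it was well above background on all 4 arrays and if its mean scaled log2 signal in hybrids with severe growth abortion (SGA) minus that in wild-type hybrids was -4 or lower. Probes with an outlier spot, and those whose names start with whsh_allContig or ncbi_gi_, were left out. The 115 probes are 0.441% of the 26076 probes that could have met the rule, out of 37826 plant probes on each array. Because the rule used this contrast, the sizes of the differences are given as a description, with no test.

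The groups were SGA hybrids (2 arrays) and wild-type hybrids (2 arrays), both triploid plants with a tetraploid wheat parent and an Aegilops tauschii parent, grown at 23 °C and sampled at 3 weeks. RNA came from the crown per the extraction protocol, whereas other labels name the shoot meristem or the leaf. The labels do not name the parental lines, so a difference of genotype cannot be told apart from one of phenotype, nor do they say whether an RNA came from 1 plant or several. The wild-type hybrids are themselves interspecific triploids. The tissue could not be checked against marker genes, because the probes carry the names of contigs, clones and accessions and the files do not pair them with genes. The names below are therefore identifiers of sequences on the array, and no function is given for any of them.

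The crown is the base of a grass shoot. It holds the shoot apical meristem, whose dividing cells supply new leaves and, later, the spike, together with young leaf bases and stem tissue in which cells expand and differentiate. Hybrids between tetraploid wheat and Aegilops tauschii, the donor of the D genome of bread wheat, can show abnormal growth such as necrosis, chlorosis or early arrest of the shoot, and the title of the series places the dysfunction in mitosis at the shoot apex. In RNA from a whole crown, fewer cells of a type and less RNA per cell cannot be told apart.

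Across the 115 probes, the processed signal (background-subtracted spot intensity, in arbitrary units) had a median of 701 and 706 on the SGA arrays, against 9376 and 8424 on the wild-type arrays. The range was 22.9 to 32382 in SGA replicate 1 and 29.5 to 31138 in SGA replicate 2, against 429 to 419545 in wild-type replicate 1 and 399 to 400340 in wild-type replicate 2. Before any scaling, both SGA signals lay below both wild-type signals for each of the 115 probes. After scaling, the same held for all 115, against 37.6% of the 26076 probes. No share before scaling is given for the 26076. The rule largely sets the count for the 115. After subtraction of the array's 75th percentile, the median log2 difference was -4.42, a 21.4-fold lower level in SGA, with quartiles of -4.71 and -4.17 and a range of -10.03 to -4.003. All 26076 probes had a median of 0.12. Before scaling, the median ratio of wild type over SGA was 11.5, with a range of 8.57 to 558. The scaled folds are larger because the 75th percentile that was subtracted was itself 0.90 log2 units higher in SGA. The 7 spike-in control RNAs were on average 0.018 log2 units higher in SGA.

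**Figure D1:**
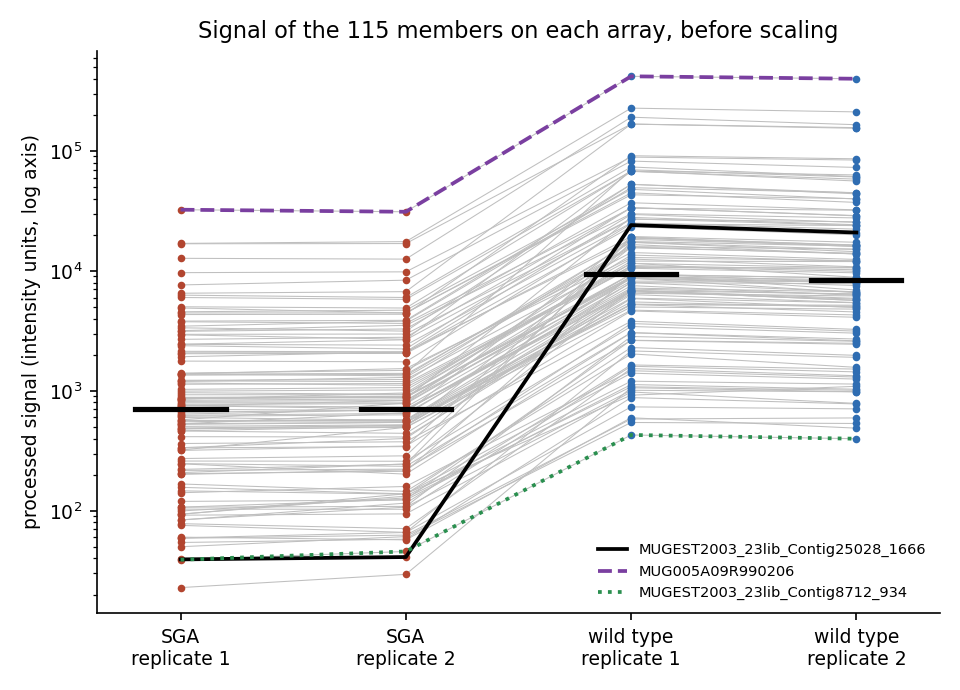
Processed signal of each of the 115 probes (points, joined by grey lines) on the 2 SGA and the 2 wild-type arrays, on a log axis in intensity units, with bars at the medians. The medians are 701 and 706 in SGA, against 9376 and 8424 in wild type, and 3 probes described in the text are picked out by line style.

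The probes differed far more in brightness than in the size of the difference. Brightness also depends on the probe sequence, so signals of different probes do not rank their transcripts. In wild type, 55 probes had a mean signal over 10000, 52 lay between 1000 and 10000, and 8 lay under 1000. The median log2 differences of these groups were -4.48, -4.43 and -4.19 in that order, and the lowest were -10.03, -6.34 and -4.78. The rule cuts the differences off at -4. It also requires detection in SGA, which caps the difference a probe dim in wild type can show. The narrow range and this order are thus largely set by the choice of probes. In SGA, 43 probes kept a mean signal over 1000, whereas 13 lay under 100, close to the lowest signals called well above background on those arrays (21.6 and 22.6). Across the 115 probes, log2 signal in SGA and in wild type correlated at r = 0.93. The rule holds every difference at or below -4, which forces much of this, and the arrays are shared. The correlation of wild-type log2 signal with the difference was -0.12.

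The largest difference stood well apart from the rest. Probe MUGEST2003_23lib_Contig25028_1666 had signals of 39.3 and 41.1 in SGA, against 24109 and 20906 in wild type, a log2 difference of -10.03 and a 1044-fold lower level. The fold rests on SGA signals near background. The log2 difference was -8.64 with normexp correction, a model that keeps dim spots positive, and -8.70 without background subtraction. Normexp was run with 50 units added, and the other setting keeps the background. Both shrink the fold of a dim spot by arithmetic. This probe is the only 1 of the 115 beyond -8. Its SGA signals lay at the 23.7th and 23.0th percentile of their arrays, and its wild-type signals at a mean percentile of 95.6. This was the widest change of place among the 115 probes, 72.2 percentile points.

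The next 6 probes lay between -8 and -6. Probe wheat0130Contig2423 had signals of 208 and 246 in SGA, against 18754 and 16467 in wild type, which is 145-fold lower (-7.18). Probe wheat0130Contig415 had 273 and 287 in SGA, against 17317 and 14470 in wild type, 106-fold lower (-6.72). Probe wheat0130Contig11447 had 334 and 343 in SGA, against 19008 and 15940 in wild type, 96.2-fold lower (-6.59). These 3 contigs started from a like brightness in wild type and all lay below the middle of the SGA distribution, at mean percentiles of 39.5, 42.0 and 44.4. Probe rwhsh15n12 was brighter in both groups, with 1379 and 1399 in SGA, against 69696 and 60671 in wild type, 87.6-fold lower (-6.45). Probe rwhv3n18a16_240 had 204 and 213 in SGA, against 9299 and 8764 in wild type, 80.9-fold lower (-6.34). Probe MUGEST2003_23lib_Contig14236_803 was the dimmest of the 115 in SGA, with 22.9 and 29.5, against 1061 and 983 in wild type, 73.5-fold lower (-6.20). Its SGA signals are barely above the detection floor, and the size of its difference depended on the background correction: it was -4.53 after normexp correction and -4.61 without background subtraction.

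Probes wheat0130Contig12796, rwhf14e23 and MUGEST2003_23lib_Contig23337_358 complete the 10 largest differences, at -5.85, -5.84 and -5.81. The first had signals of 834 and 857 in SGA, against 27964 and 24265 in wild type. For the last, the signals were 530 and 656 in SGA, against 19110 and 16340 in wild type. Beyond these, 9 further probes lay below -5, 31 between -5 and -4.5, and 65 between -4.5 and -4, so more than 1 in 2 of the probes sit within 0.5 log2 units of the threshold.

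The 5 brightest of the 115 spots in wild type, the only ones above the 99th percentile there, remained bright in SGA. Probe MUG005A09R990206 had signals of 32382 and 31138 in SGA, against 419545 and 400340 in wild type, a 24.1-fold lower level (-4.59). Its percentile was 96.2 in SGA and 99.99 in wild type, so that a 24.1-fold difference moved its rank by 3.80 points, the least of all. Probe MUG019A11R990611 had 16966 and 17549 in SGA, against 227727 and 211896 in wild type (-4.57), and probe MUG007G09R990628 had 12738 and 12546 in SGA, against 191350 and 165651 in wild type (-4.72). Probe whfl_allContig284 had 16846 and 16911 in SGA, against 167637 and 154665 in wild type (-4.16). These 4 probes were the only ones of the 115 still above the 90th percentile in SGA. The remaining 1 of the 5, wheat0130Contig14378, had a larger difference, with 6515 and 6717 in SGA, against 167786 and 156587 in wild type, 45.8-fold lower (-5.52).

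The 3 dimmest of the 115 spots in wild type were all MUGEST contigs. Probe MUGEST2003_23lib_Contig8712_934 had signals of 39.1 and 45.8 in SGA, against 429 and 399 in wild type (-4.19). Probe MUGEST2003_23lib_Contig3944_431 had 50.1 and 60.9 in SGA, against 545 and 535 in wild type (-4.19), and probe MUGEST2003_23lib_Contig6793_664 had 60.2 and 57.2 in SGA, against 596 and 489 in wild type (-4.10). With so little signal above the local background of these arrays (medians of 47.5 and 47.0 units in SGA), the fold of such probes depends on the subtraction. Without background subtraction, the differences of these 3 probes were -2.99, -3.28 and -3.25 in the order given. Of the 115 probes, 22 had a fold over 1.5 times smaller with normexp correction or without background subtraction. Their mean signals in SGA reached up to 156. Both settings leave an added amount in each signal, so smaller folds of dim probes largely follow from their construction.

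In rank within the array, which no uniform scaling can change, 71 of the 115 probes (61.7%) were above the 90th percentile in wild type, and 99 (86.1%) were above the 75th. In SGA, 4 probes (3.48%) were above the 90th percentile and 23 (20.0%) above the 75th. Among all 26076 probes the shares above the 90th percentile were 13.4% in SGA and 12.9% in wild type. The ranks come from the signals the rule used, so the higher place in wild type largely follows from the choice of probes. The median percentile of the 115 was 54.2 in SGA, against 91.6 in wild type, and the median drop was 36.0 points. The median probe of the set thus lay near the middle of the SGA arrays. That none of the 115 lay at background follows from the rule, which took only probes well above background on all 4 arrays.

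**Figure D2:**
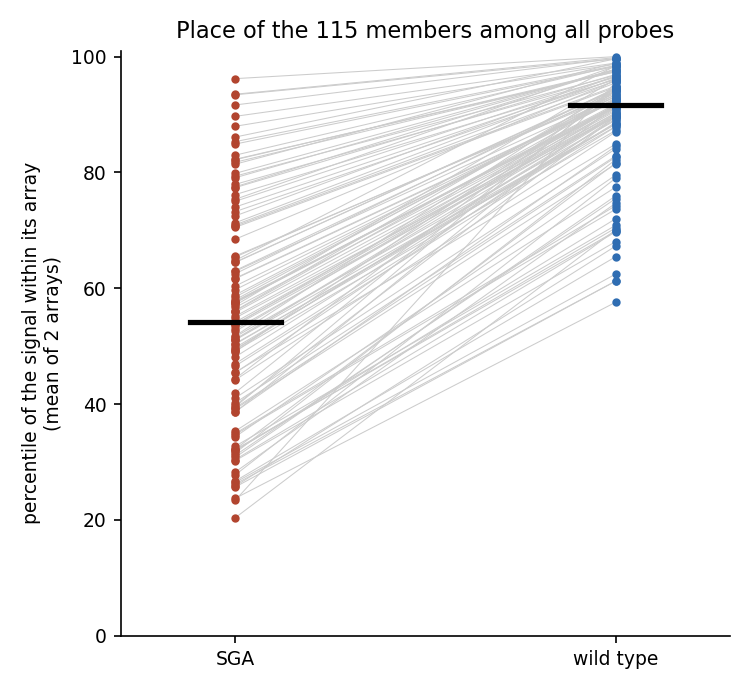
Percentile of each of the 115 probes among all unflagged plant probes of its array, as the mean of 2 SGA arrays (left) and 2 wild-type arrays (right), with lines joining the same probe and bars at the medians. The median is 54.2 in SGA and 91.6 in wild type, and 70 of the 115 probes are still above the 50th percentile in SGA.

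Together the 115 probes, 0.304% of the plant probes, held 0.112% and 0.108% of all plant signal in SGA, against 1.67% and 1.69% in wild type. The means were 0.110% ± 0.0022 in SGA and 1.68% ± 0.016 in wild type (SD, n = 2 each). The rule chose probes for lower signal in SGA, so the lower share there largely follows from it, and no p is given. The smallest two-sided p that exact permutation allows for 2 against 2 arrays is also 0.333. The 5 probes brightest in wild type made up 37.4% and 36.9% of the signal of the set in SGA, against 38.3% and 39.4% in wild type.

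Both slides gave nearly the same values. Per the file headers, arrays with the same replicate number, 1 SGA and 1 wild type, shared a slide. The median log2 difference of the 115 probes was -4.42 on slide 1 and -4.38 on slide 2. All 115 were lower in SGA on both slides, 103 were at -4 or lower on both, and 12 missed -4 on 1 of them. The rule used the mean of these 2 slides, so the direction, the medians and these counts largely follow from the choice of probes. Across the probes, which are not independent replicates and share their arrays, the slides correlated at r = 0.98. The median gap between the slides was 0.089 log2 units, against 0.083 for all 26076 probes. For the largest difference, MUGEST2003_23lib_Contig25028_1666, the slides gave -10.05 and -10.002.

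**Figure D3:**
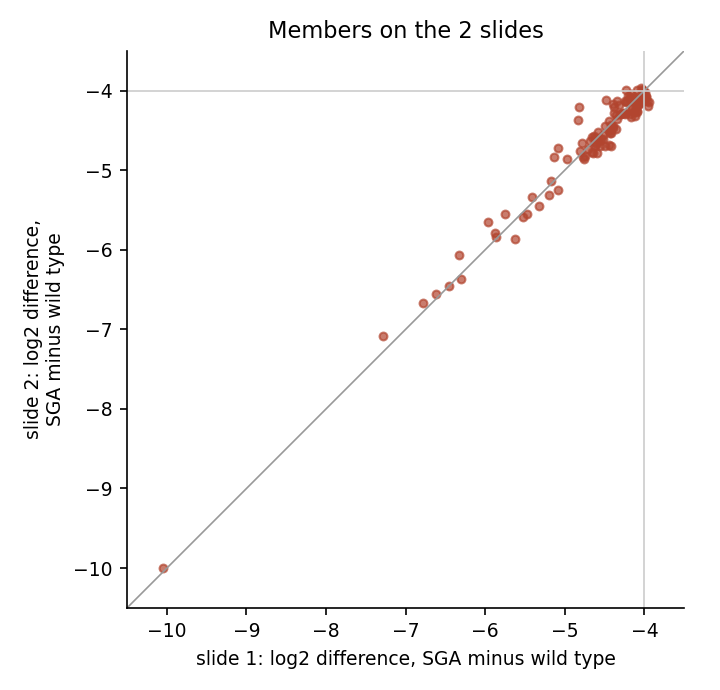
Log2 difference (SGA minus wild type, relative to the 75th percentile) of each of the 115 probes on slide 1 (horizontal) and slide 2 (vertical), with the line of equal values and grey lines at -4. The points lie along the diagonal, with slide medians of -4.42 and -4.38, and the probe at the lower left is at -10.05 and -10.002.

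Replicate arrays were close for these probes. The absolute difference between arrays of a group had a median of 0.072 log2 units in SGA and 0.061 in wild type for the 115, and of 0.061 in SGA and 0.091 in wild type for all 26076 probes. The slides were over 0.3 apart for 6 probes, with the widest gap at wheat0130Contig10871, which had signals of 320 and 496 in SGA, against 5249 and 4547 in wild type, and slide differences of -4.83 and -4.21. Its SGA arrays were 1.55-fold apart before scaling. It was named after its values were seen. In wheat0130Contig12689, likewise named afterwards, the signals were 572 and 792 in SGA, against 9382 and 8093 in wild type.

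The threshold cuts through a continuous tail. Just inside it were MUGEST2003_23lib_Contig2084_252 (-4.003), wheat0130Contig14305 (-4.006) and MUGEST2003_23lib_Contig23950_696 (-4.007). Just outside were wheat0130Contig15705 (-3.997), wheat0130Contig4449 (-3.994) and wheat0130Contig3441 (-3.99). At -3.5 or lower there were 247 probes, at -4.5 or lower 50, and at -5 or lower 19. The lower side held the single largest difference, but at sizes of 4 to 8 more probes lay on the higher side: 149 probes lay at 4 or higher, 82 at 5 or higher, and 41 at 6 or higher, against 7 at -6 or lower. At a size of 3, the order was the opposite, with 455 probes lower and 286 higher. With spike-in scaling, which aligns the arrays on 7 spike-in control RNAs, the numbers at a size of 4 were 22 lower and 265 higher, and with median scaling 166 lower and 123 higher, so the order at that size depended on the scaling. At a size of 5 and of 6 more probes were higher than lower under each of these scalings and under quantile normalization.

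**Figure D4:**
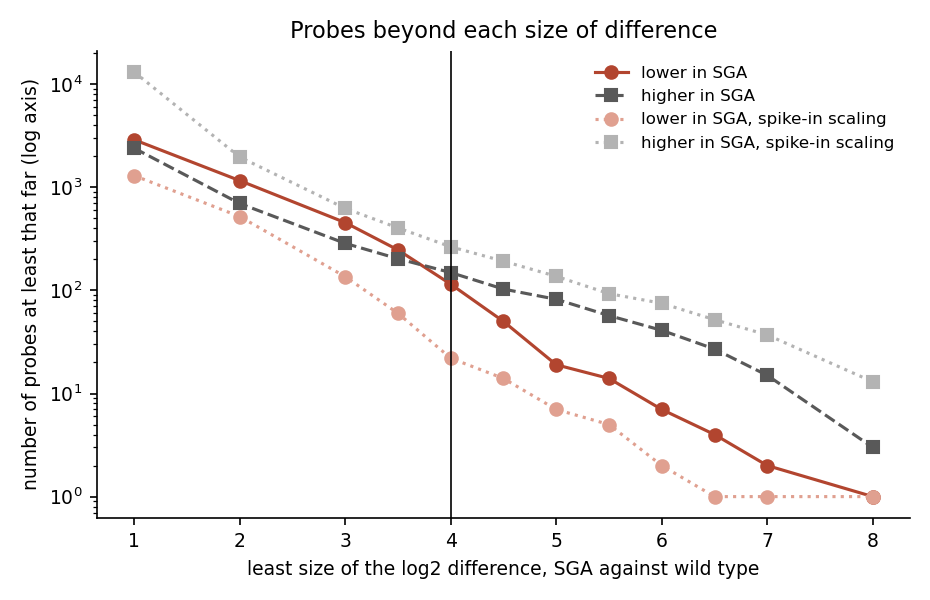
Number of probes (log axis, of 26076) whose log2 difference between SGA and wild type is at least the size on the horizontal axis, for probes lower in SGA (circles) and higher in SGA (squares), relative to the 75th percentile (dark) and with spike-in scaling (pale); the vertical line marks 4. At a size of 4 there are 115 probes lower and 149 higher, and at a size of 5 there are 19 and 82.

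Further probes were as low but did not meet the other parts of the rule. With the 2 excluded name starts, 60 further probes reached -4 (55 named whsh_allContig and 5 named ncbi_gi_). Of the 27069 probes above background on all 4 arrays, 26076 lay outside these name starts. The excluded names thus reached -4 at a higher share than the 0.441% of the 26076. Another 98 probes reached -4 but were not above background on every array. All 98 were above background on both wild-type arrays, 10 of them on 1 SGA array and 88 on neither. For the 88, the SGA level was not well above background on either array, so the sizes of their differences are uncertain. Some of the 98 were still detected in SGA by a less strict flag, with which 150 probes reached -4.

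The names of the 115 probes fell into 18 of the 78 classes formed by the letters before the first digit. The class of wheat0130 contigs supplied 61 probes (53.0%, against 43.2% of the 26076), with a median difference of -4.56. MUGEST contigs supplied 24 (20.9%, against 18.9%), with a median of -4.27. These included both the largest difference and the 3 dimmest probes in wild type. MUG clones supplied 6 (5.22%, against 4.57%), all of them bright, with mean signals of 3709 to 31760 in SGA, against 32728 to 409943 in wild type, and differences from -4.72 to -4.03. The class whfl_allContig also supplied 6 (5.22%, against 3.97%). Its largest difference was that of whfl_allContig1627, with signals of 59.4 and 65.9 in SGA, against 735 and 707 in wild type (-4.43, or -3.36 with normexp correction). The other 18 probes came from 14 classes of 1 or 2 each. No test of classes was run.

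For 3 of the 115 probes the array holds a partner whose name is the same apart from a leading r and a trailing number. The files do not say what the r stands for. Partners rwhf14e23 and whf14e23 were both among the 115. Probe rwhf14e23 had signals of 464 and 504 in SGA, against 15805 and 13858 in wild type (-5.84), and whf14e23 had 93.7 and 132 in SGA, against 1203 and 1138 in wild type (-4.30). Thus both were lower, by 57.2-fold and 19.6-fold, although with normexp correction the log2 difference of whf14e23 was -3.57. The other pair did not move together. Probe rwhkv10m23_436 had 91.9 and 94.2 in SGA, against 978 and 786 in wild type (-4.14, or -3.43 with normexp correction), whereas its partner whkv10m23_375 had 188 and 375 in SGA, against 158 and 223 in wild type, a scaled difference of -0.40. Over the 1120 such pairs measured on all 4 arrays, the median gap between partners was 0.22 log2 units and their differences correlated at r = 0.70 (pairs share the arrays). A gap over 3, as in rwhkv10m23_436 and its partner, was found in 7 pairs (0.625%).

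Most neighbours by number or by place on the array did not share the difference. No 2 of the 61 wheat0130 contigs had consecutive numbers, and the 89 measured contigs numbered next to them had a median difference of 0.0050, against 0.11 for all 11260 measured contigs of that class. Of these 89, 5 (5.62%) were at -2 or lower, against 4.56% of the class. On the array, 56 of the 115 probes (48.7%) lay in the upper 266 of 532 rows and 52 (45.2%) in the first 42 of 85 columns, against 49.9% and 49.0% of the 26076. No 2 of them were adjacent, and the 552 measured spots next to them had a median difference of 0.13, against 0.11 for all probes above background on the 4 arrays. Of these 552 spots, 1 was at -4 or lower, against 175 of the 27069 probes above background on all 4 arrays. No expected number was worked out for adjacent spots or consecutive contig numbers, so nothing is read from their absence. The local background of the 115 spots had medians of 47.5 and 47.0 in SGA, against 47.5 and 46.0 in wild type.

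Direction did not depend on the scaling, but the size did. All 115 probes were lower in SGA under each of 8 scalings and background corrections, and 114 were at least 8-fold lower under each, the exception being MUGEST2003_23lib_Contig8712_934. Such a shared direction follows from choosing probes this far apart and is no sign of stability. Uniform shifts moved the median of the 115 from -4.69 with median scaling to -4.01 in the authors' deposited values, -3.79 with total-signal scaling and -3.54 with spike-in scaling. Under all 8 settings 22 probes stayed at -4 or lower. Spike-in scaling, a uniform shift, by itself left 22, so these are by construction the 22 with the largest differences as reported. The distance of the 115 from the median of all 26076 probes was -4.54 under every uniform scaling, which cannot change it. It was -4.40 with quantile normalization and -4.15 with normexp background correction.

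**Figure D5:**
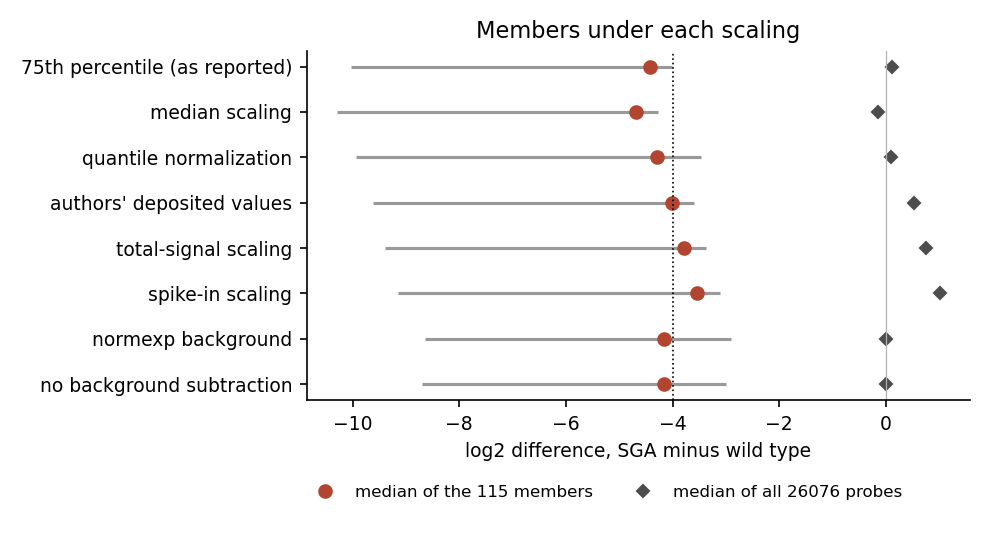
Log2 difference (SGA minus wild type) of the 115 probes under 8 scalings and background corrections: circles are their medians, grey lines run from the lowest to the highest probe, diamonds are the medians of all 26076 probes, and the dotted line is at -4. The median of the 115 lies between -4.69 and -3.54, and the diamonds move with it under the uniform scalings.

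Over the whole array the signal was distributed differently in the groups. The median signal of plant probes was 503 and 543 in SGA, against 238 and 228 in wild type, the 75th percentiles were 2671 and 2813 in SGA, against 1541 and 1395 in wild type, and the part of this in the differences was not tested beyond the scalings above. In the fit over all 30005 tested probes (limma with Benjamini-Hochberg adjustment), 8944 probes (29.8%) were called lower in SGA at an adjusted p under 0.05 and 12943 higher. All 115 were among the probes called lower, and nothing is read from that, since the same contrast chose them. Higher calls were thus 59.1% of all calls, and this split moved with the processing: it was 40.2% with median scaling, 88.7% with spike-in scaling, 84.1% with total-signal scaling, 78.2% in the authors' values, 45.6% with normexp correction and 46.7% without background subtraction. SGA samples lay at position 4 of both slides and wild-type samples at position 3. The effects of position and of phenotype cannot be told apart.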

How the data were processed

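Crown RNA of SGA and wild-type hybrids was measured on 2 single-colour arrays each. Per the labels' protocols, 0.5 µg of RNA was amplified and labelled with Cy3. The authors deposited linear spot intensity from Agilent Feature Extraction (version 9.5 per the submitters' processing notes). Per the file headers, the processed signal is background-subtracted within its array. It is not normalized between arrays, and no probe was saturated. The value table deposited by the authors holds that intensity times 0.803 and 0.767 (SGA) and 1.04 and 1.17 (wild type), with medians of 403 and 417 (SGA) and 248 and 266 (wild type). It is linear and not centred, and how the constants were set is not stated in the sources.

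Here log2 processed signal minus the array's 75th percentile was used. Control spots and 9 probes with an outlier spot were left out. For the fit over all probes, both arrays of at least 1 group had to be well above background (30005 probes), and limma 3.58.1 (R 4.3.3, two-sided, Benjamini-Hochberg) was run. It was tested on simulated data, in which few probes changed and noise was independent between arrays. Here many probes were called and arrays shared slides, which the simulation does not cover. Figures were drawn with matplotlib 3.10.9.

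Groups and replicate numbers came from the sample titles. Nothing says that replicates came from separate plants, so p-values measure only array-to-array spread, possibly technical, and the number of arrays limits the precision. Same-numbered arrays shared a slide and scan, and their deviations from the group means correlated at r = 0.20 across tested probes (0.35 across probes above background on all 4 arrays), so the replicate number pairs the arrays.

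The 115 probes, and the rules below, were chosen with earlier results of these data known. Named were the 10 largest differences, the 3 probes just inside and just outside the threshold, the 5 brightest and 3 dimmest in wild type, the 3 with most signal left in SGA, the largest difference of each name class with 3 or more of the 115, and partner names. Lists of pathway genes and tissue markers matched nothing that could be counted, because probes are not paired with gene names. Normexp (offset 50) used median spot intensity, since the files used here have no mean intensity. Alternatives were other scalings, background corrections and filters, the replicate block, and leaving out each array.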

Additional observations from a re-analysis of the deposited data

How the results depend on the processing

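The number of probes at -4 or lower (115) was 22 with spike-in scaling, 35 with total-signal scaling and 60 in the authors' deposited values. It was 166 with median scaling, 103 with quantile normalization, 81 with normexp and 84 without background subtraction. Other filters gave 213 without the filter on dim probes, 455 at a threshold of -3, 19 at -5, and 175 with the excluded names kept. That last setting, and the use of signals without background subtraction, were chosen after seeing the data. Without each array in turn it was 113 to 122. The median difference of the 115 (-4.42) was -4.69 with median scaling, -4.30 with quantile normalization, -3.54 with spike-in scaling, -3.79 with total-signal scaling, -4.01 in the authors' values, -4.15 with normexp, -4.17 without background subtraction, -4.59 over the probes taken without the dim filter, and -4.47 over those taken with a less strict detection flag. Without each array it was -4.45 to -4.40. The difference in the share of signal (-1.57 percentage points) was -1.54 with normexp and -1.58 to -1.56 without each array. Over all probes, those called lower (8944, limma) numbered 2959 with spike-in scaling, 4119 with total-signal scaling and 5389 in the authors' values. Probes called higher (12943) were 8198 after median scaling, 23167 after spike-in scaling and 21779 after total-signal scaling. Leaving out each array gave 6513 to 9374 lower and 8474 to 13549 higher, with 8474 without SGA replicate 2. With the replicate block, which is also the slide block, 9363 were lower and 13559 higher, and all 115 probes were still called. None of the 24 probes of the set named by rule changed direction under 12 alternatives each (values from -10.29 to -2.90). That follows from choosing probes this far apart and is no sign of stability. Of the shifts in counts and medians, those under uniform scalings follow from their construction. With normexp (offset 50) and without background subtraction, an amount left in each signal shrinks the folds of dim probes by arithmetic. For the others the cause was not tested. Signal over background limits the dim probes: the fold of 22 was over 1.5 times smaller with normexp or without background subtraction.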
